A study of Mus musculus with 22 samples.

Results

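Transcription factors, receptors and secreted factors were compared between cultured MC38 cells and normal mouse skin, 2 libraries against 2, to describe which lineage programs the tumor line carries. These are 4 of the 22 samples of the series and were taken by their labels. For levels only, 12 MC38 tumors from the same table are described at the end. They grew in wild-type and RAG1-/- mice, also given as 8 to 12 weeks old. MC38 is a chemically induced colon adenocarcinoma line of C57BL/6 mice, for which the study's text names methylcholanthrene in one place and dimethylhydrazine in another. It was sampled from culture at day 0, and the skin came from wild-type C57BL/6N mice of 8 to 12 weeks, at day 23. Both MC38 libraries are of 1 line. Skin is a mixture of epidermis, hair follicles, dermis, fat, muscle, vessels and immune cells, and no colon sample was compared, so a difference describes MC38 relative to skin and not relative to its tissue of origin. RNA was sequenced from the 3′ ends of transcripts, with 13135241 and 11602486 reads on genes in MC38 and 11477036 and 11537800 in skin, and levels are normalized counts as deposited, in which 3 reads are worth 2.57 to 4.02. Nothing states that the libraries of a group came from separate cultures or mice, so the p-values measure the spread between these libraries.

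Cell lineage is held by sets of transcription factors that open and read the genes of one tissue. CDX and HNF4 factors specify intestinal epithelium, p63 and the grainyhead and ovo factors specify stratified epidermis, and forkhead, T-box and Twist or Prrx factors pattern mesenchyme of the gut wall, heart, limb and dermis. HOX genes record position along the body and limb axes, where high paralog numbers mark posterior and distal positions. The factors a cell secretes and the receptors it carries follow from these programs and set which signals it can send and receive.

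Of 40812 autosomal genes in the table, 15972 averaged 5 or more normalized counts across the libraries and were tested with limma on log2(normalized count + 1), which understates the change of low genes. At an adjusted p under 0.05, 20.9% of them were higher in MC38 and 41.3% were lower, and the median log2 difference was -0.39. With skin replicate 1 as the only skin library, 14.3% were higher and 25.3% lower. Rescaling the libraries to one total moved the median to 0.02 and the share of calls that were higher from 33.6% to 46.6%, so small differences depend on the scale. In what follows, rose and fell mean a call at this threshold, and list counts are to be read against these shares. For a named gene whose call ended in any alternative, the number of alternatives that kept it and the highest adjusted p are given. The adjusted p of each left-out library that ended the call is given too. For Cd44, Ntrk2 and Nrg1 only the number and the libraries are given. A fit with 1 library of a group left out assumes that the remaining one varies like the others. Every such fit called fewer genes in total, higher and lower, than the fit with all libraries. Smaller list counts in these fits are to be read against that general loss. A permutation test of 2 against 2 libraries cannot go below an exact p of 0.333, so single values carry the p of the fit across all genes.

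The skin libraries differed from each other in 2 ways that touch the results. First, 32 autosomal genes had at least 100 normalized counts in both MC38 libraries and no read in skin replicate 1, and all 32 had reads in skin replicate 2, at a median of 5.07% of their MC38 mean (quartiles 2.71% and 8.68%, range 0.912% to 30.2%). With the skin libraries exchanged, 1 such gene was found, at 0.883% of its MC38 mean. Some MC38 RNA in skin replicate 2 and a real difference between the skin samples cannot be told apart for a single gene. Many lists are therefore also given with skin replicate 1 alone, but not every list. Those given without it, among them keratinocyte and dermal fibroblast markers, are not shown to keep their counts there. Second, 10 of 10 hair follicle markers were higher in skin replicate 1, with a median ratio of 11.8, as were 7 of 7 melanocyte markers (median ratio 3.59). Only 3 of 12 skeletal muscle markers were higher in replicate 1, and their summed level was 132000.0 there and 211046 in replicate 2. The MC38 libraries lay closer together, with a Pearson correlation across genes of 0.986 on the log2 scale against 0.947 for skin.

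**Figure D1:**
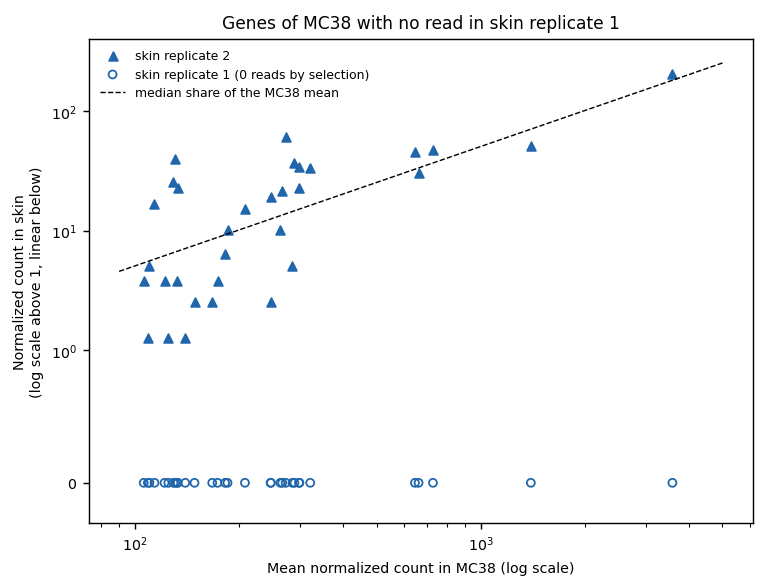
Normalized count in each skin library (vertical axis, log scale above 1 and linear below) against the mean normalized count of the 2 MC38 libraries (horizontal axis, log scale) for the 32 autosomal genes with at least 100 in both MC38 libraries and no read in skin replicate 1. Triangles are skin replicate 2 and open circles skin replicate 1, which is at 0 by selection; the dashed line marks the median share of 5.07%, around which the triangles scatter.

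Genes that define gut or other simple epithelium were at or near 0 in MC38, although the line is labelled a colon adenocarcinoma. E-cadherin (Cdh1) was read 0 and 1 times in the MC38 libraries and Epcam 0 and 4 times, against levels in skin of 2392 and 3319.6 for Cdh1 and 2185 and 2819.9 for Epcam. Of the simple epithelial keratins, Krt18 and Krt19 had no read in MC38 and Krt8 had 5 and 1. Over the 16 simple epithelium markers the summed level was 5.99 and 17.6 in MC38 and 24631 and 22925 in skin, and 0 rose and 13 fell among 13 tested, or 0 and 10 with skin replicate 1 alone and 0 and 8 without skin replicate 1. Colon markers summed to 14.5 and 15.6 in MC38 and 9224 and 8015 in skin over 20 genes, and Fcgbp, also a skin gene at 8379 and 7182, made most of the skin sum. Villin (Vil1), the mucin Muc2, Tff3, Car1, Fabp1 and the glycoprotein Gpa33 had 0 to 4 reads in each MC38 library and no more than 3 in each skin library. The splicing regulators Esrp1 and Esrp2, which hold the epithelial forms of many transcripts, were nearly unread as well. Esrp1 was 0 and 0.978 in MC38 and 4686 and 4862 in skin and Esrp2 0 and 2.93 in MC38 and 1022 and 838 in skin. Esrp1 fell with a log2 difference of -11.73 ± 0.40 (SE), adjusted p = 0.000121, and Cdh1 with a log2 difference of -10.97 ± 0.44 (SE), adjusted p = 0.000145. Calls that did not hold in every alternative run were those of Esrp2 (kept in 12 of 14, 0.0714 without skin replicate 1, 0.0679 without skin replicate 2) and Epcam (kept in 12 of 14, 0.0703 without skin replicate 1, 0.0715 without skin replicate 2).

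The intestinal transcription factors were mostly unread. Of 20 factors on the list, 11 had 3 or fewer reads in each of the 4 libraries, among them Cdx2, Hnf4a, Hnf4g, Atoh1, Foxa2, Foxa3 and Gata4. Cdx1 had 0 and 5 reads in MC38 and none in skin. Of the 8 that were tested, 1 rose and 6 fell in MC38, or 2 and 5 with skin replicate 1 alone (1 to 2 rose over the other alternatives). Foxa1, a pioneer factor of endoderm, was read in MC38 at 47.1 and 29.3 and in skin at 0 and 16.6 and was called with skin replicate 1 alone but not with both skin libraries (adjusted p = 0.105 with both, 0.0414 alone). Gata6, a factor of gut endoderm, mesoderm and hair follicle, had no read in MC38 and 363 and 398 in skin, at least 129.7-fold lower in MC38 by the 3-read floor per library. Klf5, a factor of proliferating epithelium, fell but stayed measurable, at 116 and 142 in MC38 and 1944 and 1599 in skin.

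Many promoters of these epithelial genes hold the short sequence that Snail and Zeb repressors are known to bind, and a few are shown to let it be seen in place. It is the E-box CAGGTG, searched on both strands (CACCTG on the other), in RefSeq promoter windows of 300 bases, from 250 bases before to 50 after the start, on GRCm38.p6. It was present in 9 of 11 windows of 10 of the 16 simple epithelium markers (81.8%), in 7 of 21 windows of epidermal factors, in 2 of 36 windows of mesodermal factors, in 42.9% to 44.4% of those of WNT antagonists, intestinal factors, colon markers and BMP antagonists, in 4 of 8 of those of EGF ligands and of lymphoid markers each, and in 20.2% of all 32851 windows. Cdh1 and Esrp1 had no window here. A match describes these letters only, and whether a factor sits there was not measured. The windows of Epcam, Cldn4 and Cldn3 (tight junction claudins) and, for a factor that rose in MC38 and has no match, Tbx20 are given 5′ to 3′ on the strand of the gene, with the E-box in capitals.
Epcam, chr17:87635729-87636028, plus strand: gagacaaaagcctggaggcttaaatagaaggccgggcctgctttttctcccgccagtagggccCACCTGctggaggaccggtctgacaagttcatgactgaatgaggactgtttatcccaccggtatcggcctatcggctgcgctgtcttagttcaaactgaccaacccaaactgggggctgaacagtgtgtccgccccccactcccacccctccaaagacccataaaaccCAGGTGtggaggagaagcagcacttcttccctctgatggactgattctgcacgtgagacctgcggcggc
Cldn4, chr5:134946885-134947184, minus strand: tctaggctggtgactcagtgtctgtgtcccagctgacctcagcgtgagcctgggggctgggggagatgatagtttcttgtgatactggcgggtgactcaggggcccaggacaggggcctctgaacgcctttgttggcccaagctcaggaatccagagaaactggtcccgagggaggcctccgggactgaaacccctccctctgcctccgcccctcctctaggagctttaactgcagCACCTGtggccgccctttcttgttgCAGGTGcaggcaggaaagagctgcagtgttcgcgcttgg
Cldn3, chr5:134985964-134986263, plus strand: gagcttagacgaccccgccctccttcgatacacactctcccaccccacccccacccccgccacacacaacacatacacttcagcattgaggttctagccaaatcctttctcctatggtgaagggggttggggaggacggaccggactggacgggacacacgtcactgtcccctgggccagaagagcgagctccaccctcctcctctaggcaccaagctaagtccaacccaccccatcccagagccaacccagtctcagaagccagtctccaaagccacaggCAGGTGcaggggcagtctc
Tbx20, chr9:24774254-24774553, minus strand: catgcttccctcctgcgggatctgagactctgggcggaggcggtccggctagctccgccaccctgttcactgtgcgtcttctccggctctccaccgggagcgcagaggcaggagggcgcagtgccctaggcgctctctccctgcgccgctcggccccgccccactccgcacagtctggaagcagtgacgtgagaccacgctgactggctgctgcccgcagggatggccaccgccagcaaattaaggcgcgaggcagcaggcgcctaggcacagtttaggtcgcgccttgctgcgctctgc
The E-boxes of Epcam begin 187 and 19 bases before the start, and those of Cldn4 lie on either side of it. Cldn4 and Cldn3 had no read in MC38, against 1177 and 831 for Cldn4 and 141 and 81.6 for Cldn3 in skin, and Tbx20 was read at 616 and 706 in MC38.

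Factors of stratified epidermis and hair follicle fell almost without exception. 28 of 30 fell and none rose, the median log2 difference was -7.38, or -7.03 with members at 0 reads in MC38 set to their bound, and the counts that rose and fell were 0 and 22 with skin replicate 1 alone and 0 and 17 without skin replicate 1. Trp63, the p63 factor that every stratified epithelium needs, had 4 and 0 reads in MC38 and a level of 1168 and 1238 in skin. Its target Zfp750 stood at 0 and 0.978 in MC38 and 2119 and 1622 in skin (log2 difference -10.37 ± 0.44 (SE), adjusted p = 0.000157). Tfap2b and Ehf had no read in MC38, against 1092 and 993 for Tfap2b and 571 and 736 for Ehf in skin, at least 355-fold and 223-fold lower. Hair shaft and matrix factors fell too, but from levels that differed between the skin libraries: Msx2 was 1778 and 237 in skin replicates 1 and 2, and Hoxc13 1275 and 273. Some members of the list were still well read in MC38. Sox9, a factor of hair follicle stem cells, cartilage and gut crypt, was 2599 and 1975 in MC38 and 5252 and 4346 in skin, and Klf4, a factor of barrier formation and of stromal cells, was 2083 and 1953 in MC38 and 6183 and 7881 in skin. Msx1 was 122 and 117 in MC38 and 344 and 127 in skin and was not called (adjusted p = 0.22). Cux1 was not called either, at 710.2 and 857 in MC38 and 2656 and 1001 in skin (adjusted p = 0.11). At least 1 alternative ended the call of Sox9 (kept in 12 of 14, 0.14 without skin replicate 1, 0.104 without skin replicate 2) and Trp63 (kept in 12 of 14, 0.0734 without skin replicate 1, 0.0728 without skin replicate 2).

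Markers of the cell types of skin fell with these factors. All 15 keratinocyte markers fell, with a summed level of 330.3 and 368 in MC38 and 397085 and 408131 in skin, of which Krt10, an early differentiation keratin, made most of the MC38 sum at 304 and 291. Perp, Pkp1, Dsc3, Dsg3 and Ivl, of desmosomes and the cornified envelope, were at 0 in both MC38 libraries. Endothelial markers summed to 9.41 and 14.7 in MC38 and 2189 and 2162 in skin over 10 genes, myeloid markers to 43.6 and 68.4 in MC38 and 21835 and 19603 in skin over 12, and mast cell markers to 0 in both MC38 libraries. The pan-leukocyte gene Ptprc had 0 and 1 reads in MC38. For any gene that fell, fewer cells of a type and less RNA per cell cannot be told apart in bulk RNA, and the part of skin composition in each list was not tested.

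Most mesenchymal factors were read in both MC38 and skin. Of 27 autosomal members, 20 exceeded 5 normalized counts in all 4 libraries. Among 24 tested, 10 rose and 8 fell, or 9 and 6 with skin replicate 1 alone, with a median log2 difference of 0.49. Fosl1, the AP-1 subunit Fra-1 of invasive and wounded cells, rose most, at 2271 and 1769 in MC38 and 83.1 and 94.3 in skin (log2 difference 4.49 ± 0.20 (SE), adjusted p = 0.00016). Osr1, a factor of intermediate mesoderm and connective tissue, was 628 and 697 in MC38 and 139 and 145 in skin. En1, the factor of ventral limb and dorsal dermal fibroblast lineages, was 574 and 581 in MC38 and 165 and 84.1 in skin. Twist2, of dermal precursors, was 1398 and 1244 in MC38 and 261 and 516 in skin, and Snai1, a repressor of E-cadherin, 374 and 435 in MC38 and 77.7 and 147 in skin. The rule for naming genes requires that the groups do not overlap, here and for the other genes it named. The adjusted p passed 0.05 in some alternatives for Snai1 (kept in 13 of 14, 0.0511 without skin replicate 1).

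Zeb1, Twist1 and Prrx1, core factors of fibroblasts and of epithelial to mesenchymal transition, were read in all 4 libraries and were not called. Zeb1 was 501 and 546 in MC38 and 301 and 450.0 in skin and Twist1 898 and 717 in MC38 and 505 and 649 in skin (adjusted p = 0.126 and 0.0943). Prrx1 was 1182 and 1174 in MC38 and 1289 and 1972 in skin (adjusted p = 0.159). Hmga2, an architectural factor of embryonic and tumor cells, was 2539 and 2689 in MC38 and 13.4 and 1063 in skin, so that its skin libraries stood far apart. The skin replicate 2 value is 40.7% of the MC38 mean, and the adjusted p was 0.114 with both skin libraries and 0.00313 with replicate 1 alone. Members that fell included the tendon factor Scx with no read in MC38 (44.2 and 61.2 in skin), Alx4, also with none (33.5 and 45.9), Snai2 at 31.7 and 54.7 in MC38 and 808 and 872 in skin and Tcf4 at 1205 and 1151 in MC38 and 4024 and 4262 in skin. Exons of Fosl1 and Twist2 overlap genes on the opposite strand over 57.2% and 46.5% of their length, and the strand setting of the counting is not given in the sources used here. Not every alternative run kept the call of Snai2 (kept in 12 of 14, 0.0575 without skin replicate 1, 0.0579 without skin replicate 2).

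Structural genes of mesenchyme split in 2 directions. Vimentin (Vim), the intermediate filament of mesenchymal cells, was 25666 and 24659 in MC38 and 10301 and 13890.3 in skin (log2 difference 1.07 ± 0.18 (SE), adjusted p = 0.00531), and S100a4 was 14433 and 17677 in MC38 and 2089.7 and 4679.8 in skin, with 51.7% of its exons shared with another gene on its strand. The fibroblast and stem cell surface gene Cd34 was 5011 and 5289.8 in MC38 and 1511 and 2584 in skin. N-cadherin (Cdh2) was 72.7 and 92.9 in MC38 and 12.1 and 39.5 in skin. Most dermal fibroblast markers were lower than in skin but 11 of 15 exceeded 5 normalized counts in both MC38 libraries. Col1a1, a chain of type I collagen, was 0.856 and 28.4 in MC38 and 156079 and 123916 in skin, and Thy1, Lum and Cdh11 had no read in MC38. Col3a1 was well read in both groups, at 4040.2 and 3336 in MC38 and 63963 and 66373 in skin. Of 15 dermal fibroblast markers 13 fell and 2 rose (Cd34 and Pdgfra), and of 15 general mesenchymal markers 9 fell and 5 rose. The general mesenchymal markers that rose and fell were 3 and 8 with skin replicate 1 alone, 3 and 9 without MC38 replicate 1, 3 and 8 without MC38 replicate 2 and 1 and 8 without skin replicate 1 (3 to 6 rose over the other alternatives). Among the genes named here, alternatives ended the call of Vim (kept in 13 of 14, 0.0551 without skin replicate 1), S100a4 (kept in 13 of 14, 0.0546 without skin replicate 1), Cdh2 (kept in 7 of 14, 0.121 without MC38 replicate 1, 0.161 without MC38 replicate 2, 0.134 without skin replicate 1, 0.0502 without skin replicate 2) and Col1a1 (kept in 12 of 14, 0.0891 without skin replicate 1, 0.0864 without skin replicate 2).

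**Figure D2:**
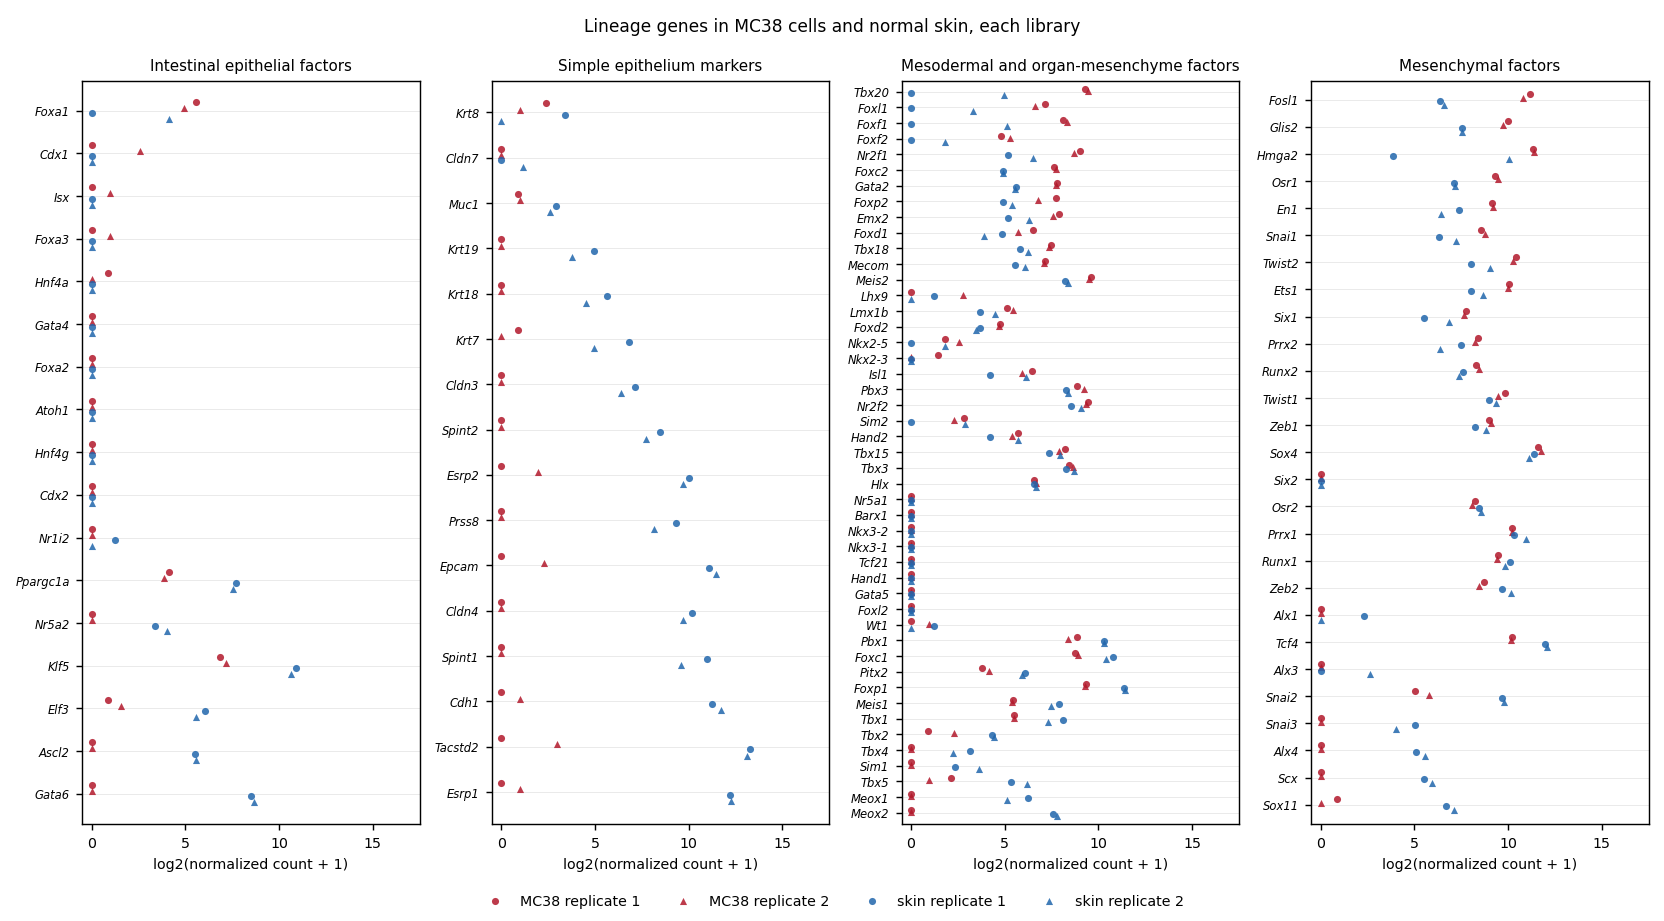
Each point is 1 library, with log2(normalized count + 1) on the horizontal axis and 1 autosomal list member per line (3 members are not drawn), ordered by the difference of group means. Red symbols are MC38 and blue symbols skin (circles replicate 1, triangles replicate 2); MC38 sits at the left edge for the simple epithelium markers and most intestinal factors and to the right of skin for Tbx20, Foxf1, Foxl1, Fosl1 and Osr1.

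Several mesodermal and organ-mesenchyme factors were well read in MC38 and hardly in skin. 15 of 32 tested rose and 10 fell, or 12 and 6 with skin replicate 1 alone, 5 and 9 without MC38 replicate 1, 9 and 10 without MC38 replicate 2 and 8 and 6 without skin replicate 1 (10 to 17 rose over the other alternatives), and the median log2 difference was 0.86. Tbx20, a T-box factor of heart and cranial motor neurons, was 616 and 706 in MC38 and 0 and 30.6 in skin (log2 difference 6.88 ± 1.62 (SE), adjusted p = 0.0174). Its value in skin replicate 2 is 4.63% of the MC38 mean, and that of Foxf1 is 11.5%. Both genes are among the 32 from which the median share above was taken. Foxf1, the forkhead factor of gut and lung mesenchyme, was 274 and 323 in MC38 and 0 and 34.4 in skin (log2 difference 5.65 ± 1.68 (SE), adjusted p = 0.0361). Foxl1, a factor of gut subepithelial mesenchyme, was 141 and 98.7 in MC38 and 0 and 8.92 in skin, and Foxf2, the paralog of Foxf1, 27.4 and 38.1 in MC38 and 0 and 2.55 in skin. None of these 4 had a read in skin replicate 1. Nr2f1, a nuclear receptor of neural crest and brain, was 523 and 408 in MC38 and 34.8 and 91.8 in skin, and Gata2, of blood and endothelial precursors, 222 and 211 in MC38 and 48.2 and 45.9 in skin. The heart and limb factors Nkx2-5, Hand1, Gata5 and Tbx4 had at most 5 reads in an MC38 library, and the mesothelial factor Wt1 had 0 and 1. Meox2 and Meox1, factors of somite and muscle precursors, had no read in MC38 and levels of 188 and 224 for Meox2 and 73.7 and 34.4 for Meox1 in skin. Some alternatives no longer called Tbx20 (kept in 12 of 14, adjusted p up to 0.0669, 0.0548 without MC38 replicate 1), Foxf1 (kept in 8 of 14, adjusted p up to 0.133, 0.0948 without MC38 replicate 1, 0.0808 without MC38 replicate 2), Foxl1 (kept in 11 of 14, adjusted p up to 0.0636, 0.0578 without MC38 replicate 1, 0.0513 without skin replicate 1) and Nr2f1 (kept in 13 of 14, 0.0509 without skin replicate 1).

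Neighbouring forkhead genes on 2 chromosomes, chosen after their values were seen, moved in different ways. On chromosome 8 of GRCm38 (GENCODE M21), the long noncoding RNA Fendrr (chr8:121054882-121083110), Foxf1 (chr8:121084386-121088144), Mthfsd (chr8:121091628-121108392), Foxc2 (chr8:121116171-121118895) and Foxl1 (chr8:121127940-121130644) follow one another, and all 5 were higher in MC38. Fendrr, which is transcribed away from Foxf1, was 127 and 138 in MC38 and 0 and 3.82 in skin (log2 difference 5.93 ± 0.82 (SE), adjusted p = 0.00289). Foxc2, of vessels and axial mesenchyme, was 199 and 214 in MC38 and 29.5 and 29.3 in skin, and Mthfsd, which encodes a protein with a domain of folate enzymes, 216 and 236 in MC38 and 100.5 and 108 in skin. On chromosome 13, Foxq1 (chr13:31556134-31560976), Foxf2 (chr13:31625816-31631403) and Foxc1 (chr13:31806633-31812476) lie together but did not move together. Foxq1, of hair and mucous epithelium, was 0.856 and 0.978 in MC38 and 1541 and 983 in skin, with 66.1% of its exons overlapped on the opposite strand. Foxf2 was the member that rose, and Foxc1, of eye and vessel mesenchyme, fell from 1748 and 1360.2 in skin to 425 and 479 in MC38 (log2 difference -1.77 ± 0.18 (SE), adjusted p = 0.00115). Calls that did not hold in every alternative run were those of Mthfsd (kept in 11 of 14, 0.0613 without MC38 replicate 1, 0.0778 without MC38 replicate 2, 0.0512 without skin replicate 1), Foxf1 (kept in 8 of 14, adjusted p up to 0.133, 0.0948 without MC38 replicate 1, 0.0808 without MC38 replicate 2) and Foxl1 (kept in 11 of 14, adjusted p up to 0.0636, 0.0578 without MC38 replicate 1, 0.0513 without skin replicate 1).

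HOX genes were described by paralog number. Of 16 genes with paralog numbers 9 to 13, 13 were tested, 7 rose in MC38 and 2 fell, with a median log2 difference of 2.41. Of 23 genes with numbers 1 to 8, 19 were tested, 1 rose and 13 fell, with a median of -2.85. This split, in which Hoxc13 of the hair factors is counted, was made after the values were seen and was not tested. With skin replicate 1 alone the counts were 8 and 2 for the high numbers and 2 and 6 for the low ones. Without MC38 replicate 1, MC38 replicate 2 and skin replicate 1 in turn, 4, 2 and 6 of the high numbers rose and 2 fell each time, so that without MC38 replicate 2 as many rose as fell. Of the low numbers 0, 0 and 1 rose and 12, 11 and 6 fell. Hoxc11 was 276 and 219 in MC38 and 0 and 2.55 in skin (log2 difference 7.03 ± 0.69 (SE), adjusted p = 0.00105), with 2 reads in skin replicate 2. Hoxc10 was 1224 and 1329.5 in MC38 and 17.4 and 294 in skin, Hoxd10 124 and 131 in MC38 and 20.1 and 26.8 in skin and Hoxb13, a posterior gene of tail bud, hindgut and prostate, 31.7 and 30.3 in MC38 and 0 and 3.82 in skin. Hoxd13, of digits and hindgut, was read at 294 and 251 in MC38 and 0 and 61.2 in skin, and Hoxa11 at 134 and 124 in MC38 and 0 and 25.5 in skin; both were called with skin replicate 1 alone but not with both skin libraries (adjusted p = 0.0145 and 0.0112, against 0.072 and 0.0505 with both). The skin replicate 2 values are 22.4% and 19.7% of the MC38 mean. Exons of Hoxa11 overlap an opposite-strand gene over 35.0% of their length. At least 1 alternative ended the call of Hoxc10 (kept in 8 of 14, 0.107 without MC38 replicate 1, 0.0876 without MC38 replicate 2) and Hoxb13 (kept in 10 of 13, 0.0668 without MC38 replicate 1, 0.0581 without MC38 replicate 2).

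Within 1 cluster, neighbouring HOX genes were read in opposite ways. Hoxc8 fell from 929.7 and 824 in skin to 18.0 and 25.4 in MC38 (log2 difference -5.29 ± 0.26 (SE), adjusted p = 0.000186), while Hoxc9 was 242 and 267 in MC38 and 109 and 130.0 in skin and Hoxc10 rose. In the B cluster, 8 of 9 tested genes fell, and 6 did with either skin library alone: Hoxb7, Hoxb8, Hoxb9 and Hoxb2 had no read in MC38, and Hoxb7 was 328 and 172 in skin, at least 85.3-fold higher there. Genes of number 9 in the other clusters were read in MC38. Hoxd9 rose, at 152 and 243 in MC38 and 29.5 and 66.3 in skin, and Hoxa9 was 446 and 355 in MC38 and 150.0 and 365 in skin and was not called (adjusted p = 0.201). In the D cluster 3 of 5 tested genes rose and none fell, and 2 and 1 rose without MC38 replicates 1 and 2. Skin from different body sites carries different HOX genes, and the labels do not give the site of either skin sample. The adjusted p passed 0.05 in some alternatives for Hoxc9 (kept in 11 of 14, 0.0618 without MC38 replicate 1, 0.0817 without MC38 replicate 2, 0.0572 without skin replicate 1), Hoxc10 (kept in 8 of 14, 0.107 without MC38 replicate 1, 0.0876 without MC38 replicate 2) and Hoxd9 (kept in 11 of 14, 0.0742 without MC38 replicate 2, 0.15 without skin replicate 1, 0.0807 without skin replicate 2).

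**Figure D3:**
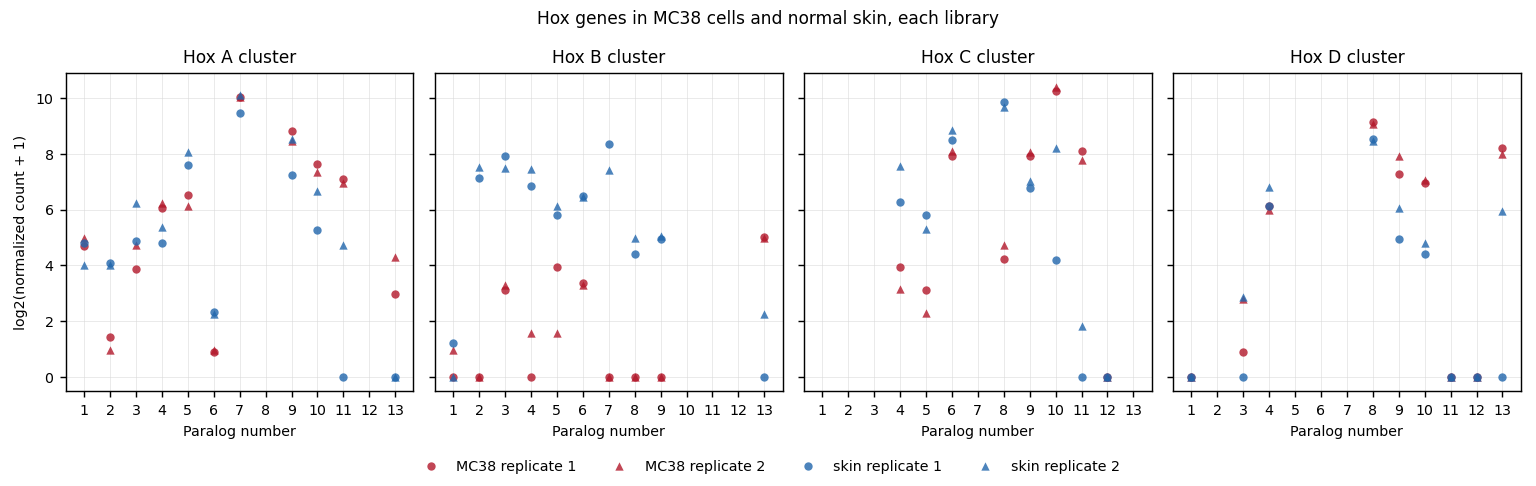
Level of each autosomal Hox list member in each library, as log2(normalized count + 1) on the vertical axis, against its paralog number, in 1 panel per cluster. Red symbols are MC38 and blue symbols skin (circles replicate 1, triangles replicate 2); red lies above blue at number 10 and, where they are read, at 11 and 13, and below blue at numbers 2 to 8 of the B cluster and 4 to 8 of the C cluster. Hoxc13 is on the list of hair factors and is not drawn.

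Several factors known from the nervous system rose. Among neural factors 6 rose and 13 fell among 21 tested, or 6 and 7 with skin replicate 1 alone and 5 and 7 without skin replicate 1 (4 to 6 rose over the other alternatives), and the median log2 difference was -1.70. Zic5 and Zic1, zinc finger factors of dorsal neural tube and crest, were both higher. Zic5 was 389 and 428 in MC38 and 1.34 and 16.6 in skin (log2 difference 6.00 ± 0.98 (SE), adjusted p = 0.00509), and Zic1 373 and 305 in MC38 and 8.04 and 30.6 in skin. Pax6, of eye, brain and pancreatic islet, was 162 and 129 in MC38 and 2.68 and 7.65 in skin, and Sox2, of neural and foregut stem cells, 106 and 146 in MC38 and 12.1 and 11.5 in skin. Proneural genes were not read: Neurog1, Neurog2, Neurod1, Olig1 and Olig2 had 3 or fewer reads in each of the 4 libraries. Pou3f1, also a keratinocyte factor, fell to 0 and 2 reads in MC38 from levels of 1613 and 1360.2 in skin. Hes1, the Notch target, was 84.7 and 76.3 in MC38 and 3429 and 3162 in skin. Not every alternative run kept the call of Sox2 (kept in 13 of 14, 0.0501 without skin replicate 1) and Pou3f1 (kept in 12 of 14, 0.0521 without skin replicate 1, 0.0503 without skin replicate 2).

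Muscle factors were read in part. Of 11 skeletal muscle factors, 6 exceeded 5 normalized counts in both MC38 libraries, and 2 rose and 4 fell among 8 tested, or 2 and 2 with skin replicate 1 alone, 2 and 2 without MC38 replicate 1 and 2 and 2 without MC38 replicate 2 (2 to 5 fell over the other alternatives). Myod1, the master factor of skeletal muscle, had no read in MC38 and 20.1 and 79.0 in skin, while Six4, a homeobox factor of muscle precursors, was 351 and 383 in MC38 and 20.1 and 75.2 in skin and its cofactor Eya4 41.9 and 34.2 in MC38 and 2.68 and 1.27 in skin. Of 8 melanocyte and neural crest factors, 4 exceeded 5 in both MC38 libraries, and 0 rose and 6 fell among 7 tested, or 0 and 4 with skin replicate 1 alone and 0 and 3 without skin replicate 1 (4 to 7 fell over the other alternatives). Sox10, the crest and melanocyte factor, had no read in MC38. Among blood and immune factors 1 rose and 12 fell among 14 tested, or 1 and 8 with skin replicate 1 alone and 1 and 7 without skin replicate 1. The riser was Eomes, a T-box factor of T and NK cells and of early endoderm and trophoblast, at 189.9 and 235 in MC38 and 2.68 and 19.1 in skin (log2 difference 4.62 ± 0.85 (SE), adjusted p = 0.00758). The lymphoid and myeloid factors Ikzf1, Irf4, Cebpa and Bcl11b had no read in MC38, and the last of these, also a skin factor, was 2821 and 4277 in skin. Lymphoid markers summed to 0.856 and 0 in MC38 over 12 genes.

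Growth and fetal factors rose more often than they fell. Of 24 tested, 14 rose and 6 fell, or 11 and 5 with skin replicate 1 alone and 9 and 5 without MC38 replicate 1, with a median log2 difference of 1.35. The fetal RNA-binding protein Igf2bp3 was 645 and 645 in MC38 and 0 and 45.9 in skin, and its relative Igf2bp2 796 and 668 in MC38 and 81.7 and 167 in skin. Tead2 and Wwtr1 (TAZ), the DNA-binding and coactivator arms of Hippo signaling, both rose. Tead2 was 1467 and 1668 in MC38 and 111 and 181 in skin, and Wwtr1 3002 and 3052 in MC38 and 742 and 910.2 in skin. Foxm1 and E2f1, factors of the dividing cell, rose as well, with Foxm1 at 1576 and 1952 in MC38 and 225 and 301 in skin and E2f1 at 763 and 805 in MC38 and 181 and 181 in skin. Myc was 603 and 488 in MC38 and 193 and 178 in skin (log2 difference 1.54 ± 0.19 (SE), adjusted p = 0.002), while Mycn, read in skin at 367 and 53.5, had no read in MC38. The pluripotency factors Pou5f1, Nanog, Sall4 and Lin28a had 3 or fewer reads in each library. Of 10 proliferation markers 9 rose, and the remaining one, Mki67, was 1731 and 1711 in MC38 and 1542 and 1615 in skin (adjusted p = 0.397). Among the genes named here, alternatives ended the call of Igf2bp3 (kept in 9 of 14, adjusted p up to 0.0898, 0.0813 without MC38 replicate 1, 0.0601 without MC38 replicate 2) and Myc (kept in 12 of 14, 0.0619 without skin replicate 1, 0.0651 without skin replicate 2).

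Over all transcription factor lists, 57 of 199 tested members rose (28.6%) and 107 fell (53.8%). These lists also hold genes of other kinds, among them the RNA-binding protein genes Igf2bp1, Igf2bp2 and Igf2bp3. For receptors the counts were 13 and 140 of 178 (7.30% and 78.7%), and for secreted factors 35 and 154 of 227 (15.4% and 67.8%). The share that rose was above the 20.9% of all tested genes for the transcription factor lists and below it for receptors and secreted factors. The share that fell was above the 41.3% of all tested genes for each kind of list. The lists were chosen with earlier results of these data known, so these shares describe the lists only. The median log2 differences were -1.26, -3.75 and -3.83, or -3.30 for receptors and -3.12 for secreted factors with genes at 0 reads set to their bound. With skin replicate 1 alone, 53 rose and 72 fell of 194 transcription factors, 15 and 95 of 174 receptors, and 27 and 103 of 217 secreted factors.

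**Figure D4:**
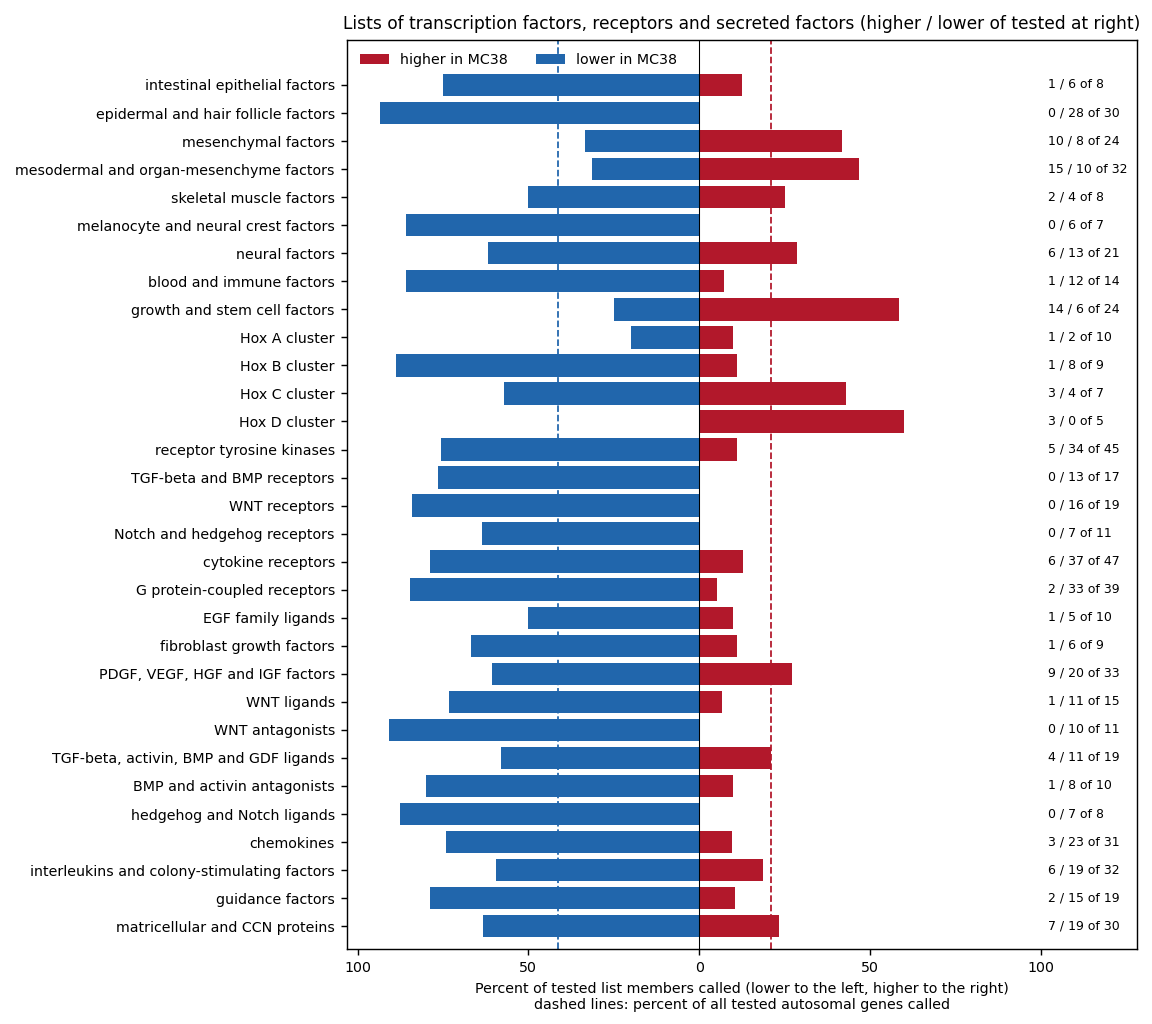
Percent of the tested members of each list that were called higher (red, to the right) or lower (blue, to the left) in MC38 than in skin at an adjusted p under 0.05, with the numbers at the right edge. Dashed lines mark 20.9% and 41.3%, the shares among all tested autosomal genes; growth, Hox D, mesodermal, Hox C and mesenchymal factors have the longest red bars.

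Most receptor tyrosine kinases fell. Of 45 tested, 5 rose and 34 fell, or 7 and 23 with skin replicate 1 alone. Axl, the receptor of Gas6, was 4151 and 4153 in MC38 and 1344 and 1485 in skin (log2 difference 1.55 ± 0.12 (SE), adjusted p = 0.000517). Met, the receptor of hepatocyte growth factor, was 1217 and 1309 in MC38 and 359 and 489.5 in skin (log2 difference 1.59 ± 0.20 (SE), adjusted p = 0.00204). Ddr2, a collagen receptor, was 3552 and 3621 in MC38 and 1291 and 1604 in skin, Pdgfra 1220.1 and 1250.3 in MC38 and 510.4 and 556 in skin and the ephrin receptor Epha7 101 and 115 in MC38 and 12.1 and 12.7 in skin. Egfr, the receptor of the EGF family, fell from 1715 and 1230.2 in skin to 5.99 and 10.8 in MC38 (log2 difference -7.33 ± 0.36 (SE), adjusted p = 0.000183). Its relative Erbb3 fell from 1131 and 1175 to 44.5 and 32.3. Kit, Kdr, Tek and Flt4 had no read in MC38, and Csf1r, the macrophage receptor, had 1 and 0. Fgfr1 was lower in MC38 but still well read, at 507 and 463 in MC38 and 887 and 922 in skin, whereas Fgfr3 fell from 1065 and 822 to 0 and 7.82. Some alternatives no longer called Fgfr1 (kept in 12 of 14, 0.0512 without MC38 replicate 2, 0.05001 without skin replicate 2) and Fgfr3 (kept in 12 of 14, 0.126 without skin replicate 1, 0.119 without skin replicate 2).

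No receptor of the developmental pathways rose, except that 1 TGF-beta or BMP receptor was called higher when the libraries were rescaled. 13 of 17 TGF-beta and BMP receptors, 16 of 19 WNT receptors and 7 of 11 Notch and hedgehog receptors fell, or 7, 10 and 7 with skin replicate 1 alone and 6, 8 and 5 without it. The sizes differed. Bmpr2 was 989.9 and 876 in MC38 and 3096 and 2736 in skin and Tgfbr2 472 and 386 in MC38 and 1266 and 1192 in skin, both still well read in MC38. Fzd10 and Fzd3 had no read in MC38, against 1417 and 1115 for Fzd10 and 84.4 and 65.0 for Fzd3 in skin, and Lgr5, the receptor that marks gut and hair stem cells, had 2 and 5 reads against levels of 629.6 and 614. Fzd2 was 238 and 203 in MC38 and 1042 and 741 in skin. Notch3, of vessel wall and keratinocytes, had 1 and 0 reads in MC38 and 1315 and 834 in skin, and Notch1 fell to 78.7 and 76.3 from 1589 and 1229 (log2 difference -4.16 ± 0.20 (SE), adjusted p = 0.000171). Calls that did not hold in every alternative run were those of Tgfbr2 (kept in 12 of 14, 0.0629 without skin replicate 1, 0.0586 without skin replicate 2) and Lgr5 (kept in 13 of 14, 0.0502 without skin replicate 1).

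Among cytokine receptors 6 rose and 37 fell among 47 tested, or 4 and 24 with skin replicate 1 alone, 3 and 29 without MC38 replicate 1, 3 and 31 without MC38 replicate 2 and 3 and 24 without skin replicate 1. Il1rl1 (ST2), the receptor of interleukin 33, rose most, at 1478 and 1156 in MC38 and 49.6 and 145 in skin (log2 difference 3.93 ± 0.53 (SE), adjusted p = 0.00268). Tnfrsf12a, the receptor of TWEAK, was 616 and 574 in MC38 and 44.2 and 77.8 in skin, and Tnfrsf10b, the mouse death receptor of TRAIL, 264 and 300.1 in MC38 and 81.7 and 68.8 in skin. The interferon gamma receptor chains Ifngr1 and Ifngr2 fell but were still read. Ifngr1 was 104 and 98.7 in MC38 and 532 and 946 in skin, and Ifngr2 208 and 260.0 in MC38 and 837 and 676 in skin. Receptors of immune cells and keratinocytes, such as Il7r, Csf2rb, Il1r2 and Tnfrsf19, had no read in MC38. Of 39 G protein-coupled receptors, 33 fell and 2 rose (the counts that rose and fell were 4 and 24 with skin replicate 1 alone, 0 and 33 without MC38 replicate 1, 1 and 32 without MC38 replicate 2 and 2 and 21 without skin replicate 1 (1 to 4 rose over the other alternatives)). Lpar1 and S1pr2, receptors of lysophospholipids, were read in all libraries and not called. Lpar1 was 1321 and 1301 in MC38 and 727 and 1302 in skin (adjusted p = 0.26), and S1pr2 671 and 719 in MC38 and 401 and 614 in skin (adjusted p = 0.142). At least 1 alternative ended the call of Ifngr2 (kept in 12 of 14, 0.0676 without skin replicate 1, 0.0556 without skin replicate 2).

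Neurotrophic factors were among the secreted genes with the largest rises. Brain-derived neurotrophic factor (Bdnf) was 2007 and 1829 in MC38 and 21.4 and 164 in skin (log2 difference 4.98 ± 0.94 (SE), adjusted p = 0.00833). Glial cell line-derived factor (Gdnf) was 611 and 459 in MC38 and 9.38 and 47.2 in skin. In both genes skin replicate 2 was above replicate 1, at 8.57% and 8.81% of the MC38 mean. Vegfc, a lymphatic growth factor, was 906 and 555 in MC38 and 22.8 and 61.2 in skin, Vegfa 994 and 874 in MC38 and 291 and 544 in skin, stem cell factor (Kitl) 3064 and 2994 in MC38 and 612 and 584 in skin and Csf1 1223 and 1092 in MC38 and 326 and 369.7 in skin. Of 33 such growth factors, 9 rose and 20 fell, and the counts were 9 and 12 with skin replicate 1 alone and 6 and 13 without skin replicate 1. Igf1, Igfbp2 and Igfbp3 had no read in MC38, and Igf1 was 1715 and 1233 in skin, at least 502-fold higher there. The adjusted p passed 0.05 in some alternatives for Vegfc (kept in 13 of 14, 0.0637 without skin replicate 1) and Vegfa (kept in 10 of 14, 0.107 without MC38 replicate 1, 0.0602 without MC38 replicate 2, 0.0772 without skin replicate 1).

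WNT, BMP, hedgehog and Notch ligands mostly fell. Of 8 hedgehog and Notch ligands, 7 fell (5 with skin replicate 1 alone and 3 without it). On the list of WNT ligands, which also holds Rspo1, Rspo3 and Rspo4, 11 of 15 fell. Wnt7b rose, at 513 and 499.6 in MC38 and 259.9 and 317 in skin. Wnt4 and Wnt3, of epidermis and hair, had no read in MC38, against 1541 and 1606 for Wnt4 and 457 and 470.4 for Wnt3 in skin. 10 of 11 WNT antagonists fell (7 with skin replicate 1 alone and 6 without it) and none rose, and Sostdc1, Sfrp1 and Wif1 had no read. Of the TGF-beta superfamily 4 rose and 11 fell among 19: Gdf11 was 237 and 291 in MC38 and 77.7 and 66.3 in skin, and Bmp4 had 0 and 1 reads in MC38 and a level of 327 and 144 in skin. Gremlin 1 (Grem1), a secreted BMP antagonist of gut stroma and limb bud, was the exception among BMP antagonists, at 3735 and 4533 in MC38 and 354 and 980.3 in skin (log2 difference 2.80 ± 0.49 (SE), adjusted p = 0.0066), while 8 of 10 fell. Fgf7, the keratinocyte growth factor made by stroma, was 335 and 319 in MC38 and 68.3 and 94.3 in skin. On the list of fibroblast growth factors, which also holds the binding protein gene Fgfbp1, 6 of 9 fell. The numbers that rose and fell were 1 and 9 with skin replicate 1 alone, 0 and 11 without MC38 replicate 1 and 0 and 11 without MC38 replicate 2 for WNT ligands. They were 1 and 9 with skin replicate 1 alone, 1 and 11 without MC38 replicate 1, 1 and 11 without MC38 replicate 2 and 0 and 9 without skin replicate 1 for the TGF-beta superfamily, and 1 and 2 with skin replicate 1 alone and 1 and 2 without skin replicate 1 for fibroblast growth factors. Not every alternative run kept the call of Wnt7b (kept in 12 of 14, 0.101 without MC38 replicate 1, 0.0872 without MC38 replicate 2) and Gdf11 (kept in 12 of 14, 0.052 without skin replicate 1, 0.0567 without skin replicate 2).

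Few chemokines and cytokines rose. Of 31 chemokines, 3 rose and 23 fell. Cxcl1, which draws neutrophils, was 417 and 369.5 in MC38 and 8.04 and 16.6 in skin (log2 difference 4.96 ± 0.41 (SE), adjusted p = 0.000605), and Ccl2, which draws monocytes, 1498 and 1471 in MC38 and 312 and 541 in skin. Ccl5 was 424 and 558 in MC38 and 80.4 and 444 in skin, and it was called with skin replicate 1 alone but not with both (adjusted p = 0.0498 and 0.205). Cxcl9, an interferon-induced attractant of T cells, had no read in MC38 and 636 and 885 in skin, and Cxcl12 fell from 1574 and 1138 to 16.3 and 14.7. Osteopontin (Spp1) was 8517 and 7833 in MC38 and 75.0 and 402 in skin (log2 difference 5.55 ± 0.78 (SE), adjusted p = 0.00312), and Clcf1, of the interleukin 6 family, 339.7 and 412 in MC38 and 30.8 and 40.8 in skin. The list of interleukins and colony-stimulating factors also holds other secreted factors, among them Spp1, Tnfsf9 and Mif. Of its 32 tested members, 6 rose and 19 fell, and Il6, Csf2 and Csf3 had 3 or fewer reads in each library. The counts were 4 and 18 with skin replicate 1 alone for chemokines. For interleukins and colony-stimulating factors they were 4 and 10 with skin replicate 1 alone, 3 and 18 without MC38 replicate 1, 3 and 19 without MC38 replicate 2 and 5 and 12 without skin replicate 1.

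Guidance and matrix factors held both kinds. Semaphorin 3A (Sema3a), which repels axons and vessels, was 1377 and 1304 in MC38 and 73.7 and 194 in skin (log2 difference 3.47 ± 0.47 (SE), adjusted p = 0.0027), and Slit2 546 and 517 in MC38 and 196 and 157 in skin, while 15 of 19 guidance factors fell, or 7 with skin replicate 1 alone and 6 without it. Versican (Vcan), a proteoglycan of loose matrix, was 2217 and 2124 in MC38 and 403 and 497 in skin and Cyr61 406 and 411 in MC38 and 71.0 and 124 in skin. Ctgf, a close relative of Cyr61, moved the other way, at 4.28 and 4.89 in MC38 and 339 and 484 in skin (log2 difference -6.19 ± 0.34 (SE), adjusted p = 0.000224). Decorin (Dcn) was 376 and 327 in MC38 and 37438 and 35767 in skin, periostin (Postn) had 1 and 1 reads in MC38 against 5344 and 4592 in skin, and Tnc had none against 488 and 868. Of 30 matricellular genes, 7 rose and 19 fell, or 4 and 15 with skin replicate 1 alone and 3 and 19 without MC38 replicate 1.

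For several ligands that were higher in MC38 than in skin, the receptor paired with them here was hardly read in MC38. Each ligand was paired with 1 receptor, and other receptors of these ligands were not paired. The pairs were taken from textbook knowledge after the values were seen, and they are described without a test. Kitl was read at 3064 and 2994 in MC38 and its receptor Kit not at all. Bdnf had its receptor Ntrk2 at 0 and 3 reads, and Gdnf its receptor Ret at 1 and 1. Csf1 and Il34 share Csf1r, which had 1 and 0 reads, and Vegfa and Vegfc had Kdr and Flt4 at 0. The reverse held for other pairs. Axl and Il1rl1 were high in MC38, while the ligands Gas6 and Il33 were hardly read there. Other ligands of receptors high in MC38 were read at low levels in MC38, Pros1 at 67.6 and 58.7 and Hgf at 22.2 and 16.6. Gas6 had 1 and 0 reads in MC38 and a level of 2150.0 and 3052 in skin, and Il33 7 and 7 reads and a level of 418 and 728. Pdgfa with Pdgfra, and Spp1 with Cd44, were read on both sides in MC38: Pdgfa at 1034 and 878, Pdgfra at 1220.1 and 1250.3, Spp1 at 8517 and 7833 and Cd44 at 5303 and 4375. The ligands Fgf7 and Nrg1 rose, and the receptor genes paired with them were read in MC38 but far below skin. Fgfr2 was 101 and 81.1 in MC38 and 1638 and 1354 in skin (log2 difference -4.03 ± 0.20 (SE)). Erbb3 was 44.5 and 32.3 in MC38 and 1131 and 1175 in skin. Reads from 3′ ends do not tell splice forms apart, so which form of Fgfr2 was read is not known. The calls of Cd44, Ntrk2 and Nrg1 were kept in 7, 12 and 12 of 14 alternatives. Every fit with a library left out ended the call of Cd44, whose log2 difference with all libraries was 0.44 ± 0.14 (SE), adjusted p = 0.0441. Leaving out either skin library ended the calls of Ntrk2 and Nrg1. Among the genes named here, alternatives ended the call of Il34 (kept in 13 of 14, 0.0548 without MC38 replicate 2), Vegfa (kept in 10 of 14, 0.107 without MC38 replicate 1, 0.0602 without MC38 replicate 2, 0.0772 without skin replicate 1) and Vegfc (kept in 13 of 14, 0.0637 without skin replicate 1).

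**Figure D5:**
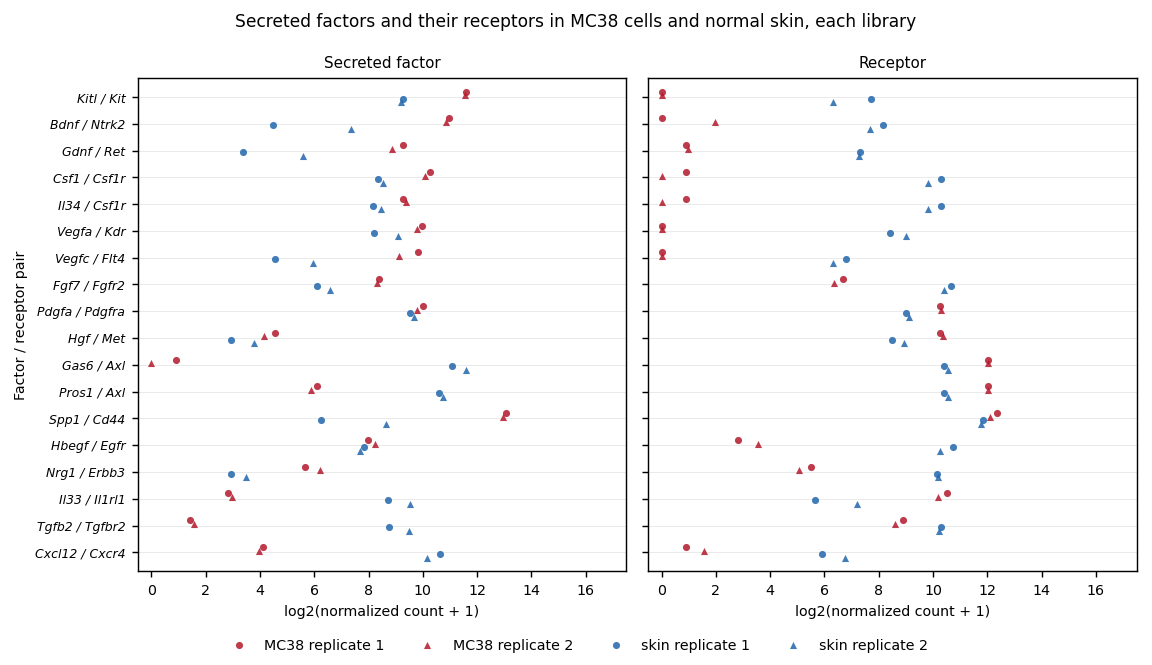
Secreted factor (left panel) and receptor (right panel) of 18 pairs, 1 pair per line, with log2(normalized count + 1) in each library on the horizontal axis. Red symbols are MC38 and blue symbols skin (circles replicate 1, triangles replicate 2); in the first 7 lines MC38 lies right of skin for the factor and at or near 0 for the receptor.

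Genes were also sorted by presence, without a test. Of all autosomal genes, 369 exceeded 5 normalized counts in both MC38 libraries with 3 or fewer reads in each skin library, 133 of them protein-coding. In the other direction 3173 genes were in skin only, 11219 in both and 22332 in neither. With skin replicate 1 alone as the skin sample, the number in MC38 only was 601. Of the members of the transcription factor lists 7 were in MC38 only and 49 in skin only. The 7 were Foxf2, Eya4, Zic2, Hoxa13, Hoxb13, Hoxc11 and the RNA-binding protein gene Igf2bp1. None of the listed receptors or secreted factors was in MC38 only, and 68 and 99 were in skin only.

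Beyond the lists, 11 of the 12 autosomal genes with the highest MC38 mean among those with 3 or fewer reads in skin replicate 1 were Klra4, Fam159b, Tuba3a, Rgs17, Pgbd5, Gm11033, Tbx20, Igf2bp3, Ptgs2os2, Zic5 and C730034F03Rik. They were chosen by level and are described without a test. Rgs17, a regulator of G protein signaling, was 1049.8 and 950.2 in MC38 and 4.02 and 67.6 in skin. Pgbd5, a gene derived from a piggyBac transposase, was 845 and 776 in MC38 and 2.68 and 31.9 in skin. Klra4 belongs to a family of near-identical receptor genes, so its reads are uncertain. The last gene inside the 12 had an MC38 mean of 356 and the first outside, Gpr149, 354. The mirror list of skin genes with 3 or fewer reads in each MC38 library was Fam25c, Krt79, Perp, BC100530, Myh4, Stfa3, Krt25, Klk7, Krt15, Krtap15, Krt17 and Asprv1, that is, epidermal and hair genes and 1 myosin of fast muscle. Its edge lay between Asprv1 at a skin mean of 16323 and Krt33a at 15820.5.

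The lineage genes of cultured MC38 were also read in the 12 subcutaneous MC38 tumors of the same table, which hold host cells as well. The tumors came from wild-type mice at days 23 and 46 and from RAG1-/- mice at days 13 and 23. These are levels with no test, given as the lowest, median and highest of the 12. Tbx20 was 387, 471 and 757, Foxf1 179.9, 295 and 417 and Hoxc11 124, 194 and 342 in tumors, against MC38 means of 661, 298 and 247. All 12 tumors had more than 3 reads of each. Bdnf was 817, 1205 and 2339.5, Grem1 773, 1497 and 3887 and Spp1 2622, 5126 and 10889. The groups differed within these ranges. Group medians were highest in RAG1-/- tumors at day 23, at 1868 for Bdnf, 3758 for Grem1 and 6001 for Spp1. They were lowest in wild-type tumors at day 46 for Bdnf (923) and Spp1 (2988) and in RAG1-/- tumors at day 13 for Grem1 (1075). Epithelial genes stayed low: Cdh1 was 7.92, 17.4 and 50.4, Epcam 0, 2.45 and 10.5 and Trp63 0, 4.40 and 15.7, and Cdx2 and Hnf4a had more than 3 reads in no tumor. Some genes that were at or near 0 or low in culture were present in tumors. Csf1r was 765, 1142 and 1668, Kdr 63.4, 120.0 and 256 and Col1a1 731, 2566 and 11095. Their MC38 means were 0.428, 0 and 14.6. Whether these reads came from host cells or from MC38 cells was not tested.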

How the data were processed

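RNA of 2 MC38 culture samples and 2 skin samples was sequenced with a 3′ tag protocol. According to the study's methods, reads were trimmed with Cutadapt and Trimmomatic, aligned to mm10 with STAR and then Bowtie2, cleared of ribosomal RNA reads and counted per gene with HTSeq-count. Of reads with several locations the primary alignment was kept, so near-identical genes are uncertain, and tool versions are not given in the sources used here. The deposited values are signal in the form of normalized counts, and the submitters' processing notes name DESeq2, which divides the counts of each sample by a size factor. At a tolerance of 0.01 every value of the 4 libraries was a whole number of reads times 1 factor, which gave the reads of each library. The part of MC38 RNA in a skin library was not modelled.

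Genes that averaged 5 or more normalized counts across the libraries (16780, of which 15972 lie on autosomes of GENCODE M21 on GRCm38) were fitted with limma 3.58.1 in R 4.3.3, with a trend, on log2(normalized count + 1), and p-values were adjusted by the Benjamini-Hochberg method over all 16780. The script was tested on simulated data. Alternatives were pseudocounts of 0.1 and 5, no filter, a mean of at least 20, scaling to the same total or upper quartile, no trend, edgeR 4.0.16 (quasi-likelihood test) and DESeq2 1.42.0 on the recovered reads, a replicate block, and each library left out. A gene was in MC38 only when both MC38 libraries exceeded 5 and both skin libraries had 3 or fewer reads, and the reverse held for skin. The floor of 3 reads, worth 2.57 to 4.02, gives the lower bound of a fold against a group at 0 and covers counting error only.

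The comparison and the gene lists were chosen with earlier results of these data known. Named genes are, per list and direction, up to 6 members with the largest log2 difference among those called whose groups do not overlap, defining members at or near 0, and the 12 highest genes of each group that the other lacks. Members named outside this rule, chosen after their values were seen, are Trp63, Hoxc13, Ehf, Klf4, Sox9, Msx1, Cux1, Zeb1, Twist1, Prrx1, Hmga2, Foxa1, Foxc1, Gata2, Hoxa9, Hoxa11, Hoxd13, Myc, E2f1, Wwtr1, Mki67, Egfr, Erbb3, Fgfr1, Tgfbr2, Bmpr2, Fzd2, Ifngr1, Ifngr2, Lpar1, S1pr2, Vegfa, Igfbp2, Ccl5, Cxcl12, Ctgf, Krt10, Col3a1, Esrp2 and the members of pairs and of gene neighbourhoods. Promoter windows came from RefSeq on GRCm38.p6. A total of 6 columns that matched no sample label were not used, and Klra4 and its relatives were not resolved. Some list members are counted in their lists but not reported here by name.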

Additional observations from a re-analysis of the deposited data

How the results depend on the processing

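Of the autosomal genes called with all 4 libraries, 3340 were higher and 6595 lower in MC38. Leaving out 1 library gave 1758 to 2235 higher and 3844 to 5302 lower. With a replicate block the counts were 3450 and 6746, but the replicate numbers share only a number: deviations of same-numbered libraries from their group means had a correlation of -0.01. The other tools gave 3601 and 6125 (edgeR) and 3442 and 6158 (DESeq2). Scaling to the same total gave 4788 and 5486 and a median log2 difference of 0.02, and scaling to the same upper quartile 4462 and 5731, with a median of -0.08. No gene called with all 4 libraries was called in the opposite direction under any of these settings. Of 380 genes fitted for naming, 364 were called and 256 of them stayed called in the same direction under every alternative that could be run for them, and the other calls were lost under at least 1, for which the cause was not tested. The number of genes in MC38 only was 369 with a floor of 3 reads, 908 with a floor of 10 and 601 with skin replicate 1 as the only skin library, an alternative chosen after seeing the data. The median share of MC38 genes in skin replicate 2 was 5.07%, and 5.69% for genes with at least 500 normalized counts. Depth limits the low genes: in single libraries 3 reads are worth 2.57 to 4.02 normalized counts.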
